A study of Mus musculus with 24 samples.

Results

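The 10 genes Crct1, Lce1g, Sprr1a, Sprr3, Ivl, Spink5, Tmprss11e, Krtdap, Sbsn and Tgm1 build or regulate the outer layer of squamous epithelium, and they were read in mouse lung organoids by their symbols, 10 of 49280 features in the count table. The genes were chosen by earlier results of these data, among them their counts in epithelial and fibroblast libraries, so the difference between those libraries is described here with no test. Whether effects of treatment entered the choice is not recorded. Organoids were grown from lung epithelial cells of wild-type mice together with the mouse lung fibroblast line CCL206. Cultures received 5% cigarette smoke extract (CSE) or vehicle until day 14, were taken apart, and were plated again with fresh CCL206 fibroblasts that had met no CSE. Until harvest on day 28 they then received vehicle or 100 nM tanimilast, an inhibitor of phosphodiesterase 4, with 100 nM formoterol, a beta-2 adrenoceptor agonist. The treatments are written TF (drugs, no CSE), CSETF (CSE, then drugs), CSE (CSE, then vehicle) and Veh (vehicle throughout). Epcam-positive cells gave the epithelial libraries (Epi) and Epcam-negative cells the fibroblast libraries (Fib), with 3 mice in each of the 8 groups and 24 libraries in all. No group had 1 drug alone, and all fibroblasts came from a single line.

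The cornified envelope is a sheath of cross-linked protein that replaces the plasma membrane of a squamous cell as it matures. Transglutaminases join precursor proteins such as involucrin, the small proline-rich proteins and the late cornified envelope proteins, and serine proteases and their inhibitors govern how the finished cells are shed. Healthy lung airways have no cornified layer, but squamous metaplasia, in which airway epithelium takes on such genes, is a known response to smoke and injury.

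The libraries held 31832267 to 47534709 counts, and levels are given in CPM, counts relative to library size, after TMM scaling, a correction for differences in composition. The fractions were mixed: the summed level of 10 epithelial identity markers was 8807 to 13520 CPM in Epi and 3106 to 6499 CPM in Fib libraries, and that of 10 fibroblast markers was 2958 to 6171 CPM in Epi and 5369 to 10026 CPM in Fib. Most of the fibroblast sum was Fn1, which averaged 3733 CPM in Epi and 5126 CPM in Fib; the other 9 markers summed to 119 to 840 CPM in Epi and 1137 to 5655 CPM in Fib. Epcam itself had 797 to 1763 CPM in Epi and 259 to 669 CPM in Fib, although the Fib libraries are labelled as Epcam-negative, and the labels do not say how the cells were separated. Markers of keratinising skin or hair (Krt1, Krt10, Krt2, Lor, Flg, Krt71, Krt25) summed to 3.15 to 5.85 CPM in Epi and 3.01 to 4.28 CPM in Fib, and Krt2 was at 0 in all Epi libraries. In such bulk libraries a change in the number of cells that express a gene and a change in RNA per cell cannot be told apart.

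Crct1, Lce1g, Sprr1a, Sprr3 and Ivl lie on chromosome 3, and Sbsn and Krtdap lie on chromosome 7 with the single gene Dmkn between them. RefSeq promoter windows of 300 bases, from 250 before to 50 after the start of transcription (GRCm38.p6), were at hand for 7 of the 10 genes. They were searched for the AP-1 motif TGANTCA, for GCGTG, the core of the motif of the aryl hydrocarbon receptor that smoke constituents activate, and for TGACG, the core of the cyclic AMP response element. Matches were counted on both strands, and no match of one motif overlapped a match of another in these genes. The 5 windows shown belong to the envelope precursors with the most reads (Sprr1a and Ivl), to the pair of genes that were higher in Fib (Sbsn and Lce1g) and to the cross-linking enzyme Tgm1. Capitals mark matches of the AP-1 motif and of the receptor core, and each sequence runs 5′ to 3′ on the strand of its gene.
Sprr1a, chr3:92485832-92486131, minus strand: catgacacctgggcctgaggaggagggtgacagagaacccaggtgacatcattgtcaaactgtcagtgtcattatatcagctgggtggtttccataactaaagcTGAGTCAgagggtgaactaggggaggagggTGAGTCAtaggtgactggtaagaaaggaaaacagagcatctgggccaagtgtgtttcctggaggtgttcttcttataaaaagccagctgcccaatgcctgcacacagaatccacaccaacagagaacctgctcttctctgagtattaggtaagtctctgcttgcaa
Ivl, chr3:92573686-92573985, minus strand: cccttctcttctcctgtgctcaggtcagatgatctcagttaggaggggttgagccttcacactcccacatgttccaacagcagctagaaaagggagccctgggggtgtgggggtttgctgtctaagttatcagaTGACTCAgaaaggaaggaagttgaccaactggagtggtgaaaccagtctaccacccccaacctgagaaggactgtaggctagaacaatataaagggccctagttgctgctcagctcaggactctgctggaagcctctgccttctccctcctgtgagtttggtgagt
Sbsn, chr7:30751221-30751520, plus strand: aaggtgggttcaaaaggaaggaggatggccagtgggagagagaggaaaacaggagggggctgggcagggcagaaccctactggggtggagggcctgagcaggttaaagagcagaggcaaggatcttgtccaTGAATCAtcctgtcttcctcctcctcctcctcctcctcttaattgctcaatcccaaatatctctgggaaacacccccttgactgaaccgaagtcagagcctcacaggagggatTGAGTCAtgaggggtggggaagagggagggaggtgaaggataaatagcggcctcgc
Lce1g, chr3:92752289-92752588, minus strand: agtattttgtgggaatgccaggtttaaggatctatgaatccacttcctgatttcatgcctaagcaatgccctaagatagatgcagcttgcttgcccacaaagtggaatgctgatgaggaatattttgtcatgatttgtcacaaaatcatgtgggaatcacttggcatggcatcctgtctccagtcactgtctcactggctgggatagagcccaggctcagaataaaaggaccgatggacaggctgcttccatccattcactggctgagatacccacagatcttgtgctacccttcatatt
Tgm1, chr14:55713443-55713742, minus strand: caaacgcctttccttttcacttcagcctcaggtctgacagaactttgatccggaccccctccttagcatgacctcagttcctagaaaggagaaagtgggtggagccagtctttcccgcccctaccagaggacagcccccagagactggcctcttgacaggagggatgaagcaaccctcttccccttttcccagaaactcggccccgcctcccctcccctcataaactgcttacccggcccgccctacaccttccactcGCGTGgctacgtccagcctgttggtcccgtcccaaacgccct

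Sprr1a held 2 AP-1 matches, which began 146 and 116 bases before the start. Ivl held 1, also 116 bases before it. Sbsn held matches 119 and 6 bases before the start, and Krtdap 1 match 81 bases before it. No AP-1 match stood in the windows of Sprr3, Lce1g or Tgm1. Of 32851 mouse promoter windows of that length, 7.81% held the AP-1 motif. The receptor core stood in the Tgm1 window shown, beginning 8 bases after the start, and in 32.4% of all windows. The cyclic AMP core stood in none of these windows and in 20.8% of all.

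Sprr1a is a small proline-rich protein that transglutaminase joins into the envelope. In Epi libraries Sprr1a had 200, 175 and 231 CPM under TF (mice 1, 2 and 3), 150, 135 and 139 under CSETF, 178, 186 and 150 under CSE, and 217, 162 and 240 under Veh. Sprr1a averaged 202 ± 28.1 CPM in EpiTF, 141 ± 8.11 in EpiCSETF, 171 ± 19.0 in EpiCSE and 207 ± 40.0 in EpiVeh libraries (SD, n = 3 each). In Fib libraries it averaged 95.4 ± 4.14 CPM in FibTF, 69.1 ± 14.6 in FibCSETF, 71.7 ± 25.6 in FibCSE and 83.4 ± 30.1 in FibVeh (SD, n = 3 each). The lowest Epi library, EpiCSETF of mouse 2 at 135 CPM, stood above the highest Fib library, FibVeh of mouse 3 at 105 CPM. Ivl, which codes for involucrin, an early scaffold of the envelope, averaged 63.9 ± 3.02 CPM in EpiTF, 54.4 ± 10.6 in EpiCSETF, 51.2 ± 5.66 in EpiCSE and 61.1 ± 17.7 in EpiVeh (SD, n = 3 each). Its Fib averages were 25.6 ± 6.94 CPM in FibTF, 20.2 ± 8.62 in FibCSETF, 12.6 ± 3.25 in FibCSE and 18.8 ± 5.36 in FibVeh (SD, n = 3 each). For Ivl the TF libraries lay above the CSE libraries in each fraction, and all other pairs of treatments overlapped. Sprr3, a small proline-rich protein of the oesophagus and other internal squamous linings, was low, at 0.962 to 2.41 CPM in Epi and 0.219 to 1.26 CPM in Fib libraries, with 8 counts in the lowest library.

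Crct1, a small cysteine-rich protein gene of the same chromosome 3 cluster, stood at 4.99 to 19.2 CPM in Epi and 1.16 to 3.58 CPM in Fib libraries. Mouse 2 was highest in each Epi group. It had 12.8 CPM in EpiTF, 14.9 in EpiCSETF, 19.2 in EpiCSE and 18.6 in EpiVeh, where the other mice had 4.99 to 11.0 CPM. In Fib no mouse was highest throughout: Crct1 had 1.94, 2.90 and 1.51 CPM in FibTF (mice 1, 2 and 3), 2.62, 1.86 and 2.43 in FibCSETF, 3.58, 1.96 and 2.03 in FibCSE and 2.23, 1.24 and 1.16 in FibVeh. Tmprss11e, a membrane-bound serine protease of squamous and airway surfaces, ran the other way. Mouse 2 was lowest in each Epi group, with 22.3 CPM in EpiTF, 11.1 in EpiCSETF, 12.4 in EpiCSE and 9.25 in EpiVeh, where the other mice had 22.9 to 42.5 CPM. In Fib mouse 3 was highest for Tmprss11e in all 4 groups, with 9.61 CPM in FibTF, 5.95 in FibCSETF, 5.54 in FibCSE and 8.15 in FibVeh, and the other mice had 1.71 to 6.84 CPM.

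The late envelope gene Lce1g had the reverse pattern between fractions. Its Epi levels were 0.787, 1.63 and 1.29 CPM in EpiTF (mice 1, 2 and 3), 0.381, 0.899 and 0.563 CPM in EpiCSETF, 0.350, 1.57 and 0.294 CPM in EpiCSE and 0.608, 1.39 and 1.20 CPM in EpiVeh. Its Fib levels were 8.21, 7.93 and 7.91 CPM in FibTF, 4.15, 3.33 and 3.10 CPM in FibCSETF, 2.14, 3.81 and 3.23 CPM in FibCSE and 6.53, 9.04 and 10.2 CPM in FibVeh. The 6 Fib libraries after CSE lay below the 6 without CSE, and every Fib library lay above every Epi library.

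Sbsn, which codes for suprabasin, a secreted protein of suprabasal cells, was also higher in Fib: 5.25 to 8.19 CPM in Epi and 7.34 to 23.8 CPM in Fib libraries. The 2 highest Fib values were mouse 1 after CSE, 23.8 CPM in FibCSE and 18.1 CPM in FibCSETF, and the other Fib libraries had 7.34 to 11.6 CPM. Krtdap, a gene of keratinocyte differentiation that lies near it, had 2 counts in 1 library (FibTF, mouse 3) and 0 in 23. A floor of 3 counts was 0.0631 to 0.0942 CPM, so Krtdap was not detectable at this depth and was not tested. The other 9 genes passed the filter on low counts.

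Tgm1, the transglutaminase that cross-links envelope precursors at the membrane, had 3.85, 4.58 and 5.43 CPM in EpiTF (mice 1, 2 and 3), 6.89, 5.54 and 9.58 CPM in EpiCSETF, 5.69, 3.51 and 6.97 CPM in EpiCSE and 3.63, 2.70 and 3.33 CPM in EpiVeh. In Fib it had 1.77, 2.80 and 3.09 CPM in FibTF, 3.74, 4.58 and 7.68 CPM in FibCSETF, 2.41, 1.71 and 3.84 CPM in FibCSE and 2.41, 0.919 and 1.27 CPM in FibVeh. In both fractions the 3 CSETF libraries lay above the 3 Veh libraries and above the 3 TF libraries, and the CSE libraries overlapped with both CSETF and Veh.

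Spink5, which codes for LEKTI, an inhibitor of the kallikrein proteases that loosen squamous cells, differed widely between libraries. It had 2.25, 2.54 and 1.62 CPM in EpiTF, 5.89, 8.31 and 14.7 CPM in EpiCSETF, 7.22, 15.2 and 33.2 CPM in EpiCSE and 2.74, 11.5 and 2.57 CPM in EpiVeh. In Fib it had 0.370, 2.23 and 0.716 CPM in FibTF, 5.22, 5.63 and 24.8 CPM in FibCSETF, 5.65, 16.6 and 51.8 CPM in FibCSE and 1.29, 2.29 and 1.48 CPM in FibVeh. All 6 Fib libraries after CSE lay above the 6 without, while in Epi the EpiVeh library of mouse 2 stood among the CSE libraries.

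**Figure D1:**
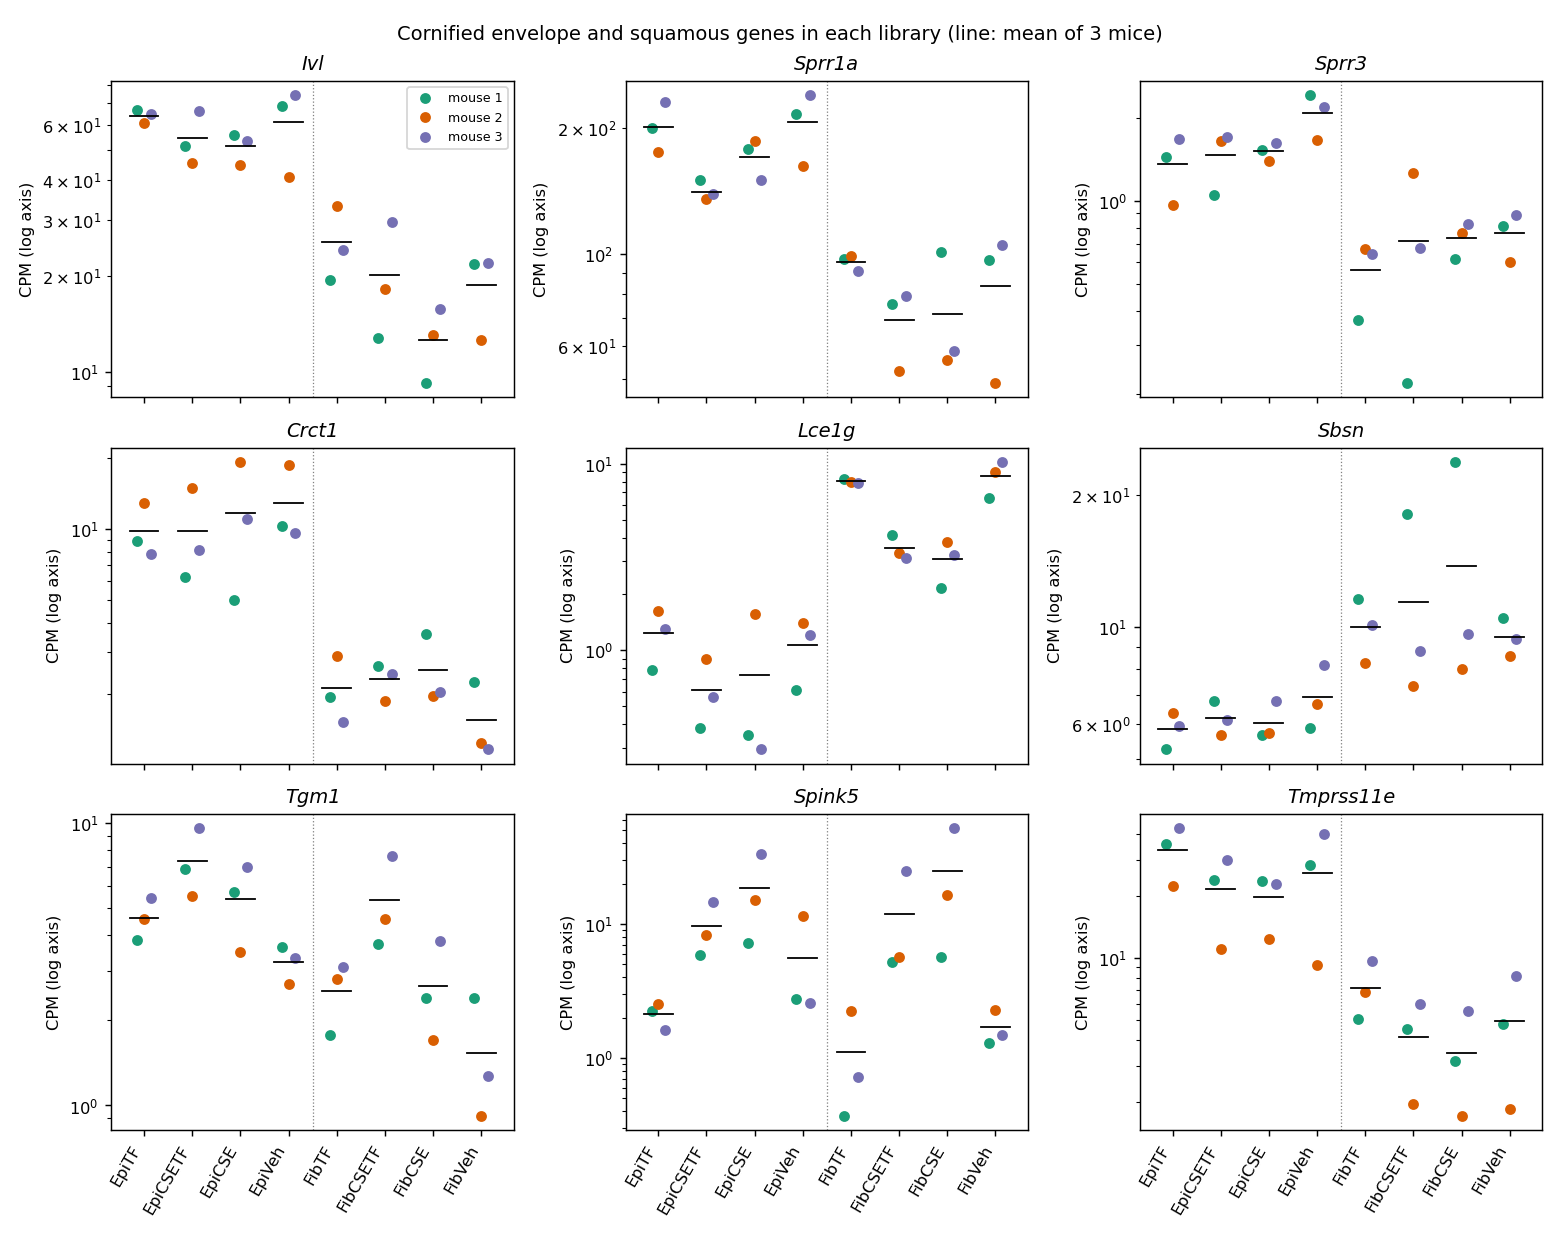
Levels of the 9 detected genes in CPM (log axis) in 8 groups of 3 libraries, Epi left and Fib right of the dotted line; points are mice and lines are means. Lce1g and Sbsn sit higher in Fib, the other precursors and Tmprss11e sit higher in Epi, and Spink5 is high after CSE in both fractions.

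Between fractions, 7 of the 9 genes were above 0 on the log2 scale of Epi over Fib, and 2 were below, where 51.8% of 19142 features were above 0; this contrast had entered the choice of the genes and nothing is read from the count. Crct1 stood at 2.38 ± 0.23 (SE) and Tmprss11e at 2.36 ± 0.30, both higher in Epi in 12 of 12 mouse-matched pairs. These lay outside the 1.12 to 1.52 of the 10 epithelial identity markers, whose median was 1.26. Ivl stood at 1.60 ± 0.15, Sprr3 at 1.19 ± 0.20, Sprr1a at 1.15 ± 0.13 and Tgm1 at 0.84 ± 0.18, each in 12 of 12 pairs. Lce1g stood at -2.59 ± 0.24 and Sbsn at -0.85 ± 0.17, each higher in Epi in 0 of 12 pairs. Without mouse 1, Sbsn stood at -0.46 and Crct1 at 2.78. Without mouse 2, Sbsn stood at -1.02, Crct1 at 1.93, Lce1g at -3.06 and Sprr3 at 1.42.

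Spink5 stood at 0.47 ± 0.41 over all treatments and was higher in Epi in 9 of 12 pairs. Its difference was 1.25 under TF and 1.38 under Veh, against -0.01 under CSETF and -0.14 under CSE. Lce1g and Lce1h, its neighbour on chromosome 3, lay on opposite sides: Lce1h averaged 2.18 ± 0.929 CPM in Epi and 0.443 ± 0.252 CPM in Fib (SD, n = 12 each), a log2 difference of 2.42 ± 0.25 (SE). Genes of this family are close in sequence, and the labels do not say how reads that match several were counted.

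**Figure D2:**
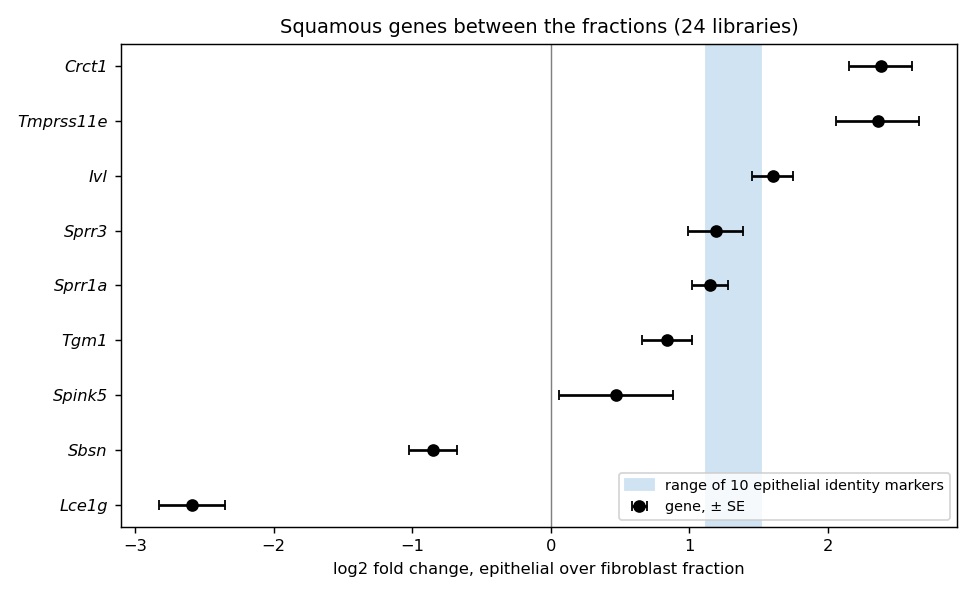
Log2 fold change of 9 genes, Epi over Fib, with SE from the fit of 24 libraries; the band is the range of 10 epithelial identity markers. Crct1 and Tmprss11e lie well right of the band, the point of Ivl just right of it, and Sbsn and Lce1g lie left of 0.

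The question put to the CSE libraries was what differed at day 28 after an exposure that ended at day 14. The fresh fibroblasts plated after that exposure had met no CSE, and the Fib libraries also held epithelial markers. Which cells carried a change in Fib was not tested. In the fibroblast fraction, averaged over drugs, Spink5 rose and Lce1g fell, and the other 7 genes tested did not pass. Those are 2 of 9 genes tested, where 4.01% of 18287 features passed (edgeR quasi-likelihood test, Benjamini-Hochberg adjusted p under 0.05), 1.83% higher and 2.18% lower. Without adjustment 3 were under 0.05, as were 21.2% of features, and DESeq2 called 3, where it called 9.64%. Spink5 averaged 18.3 CPM over the 6 libraries after CSE and 1.40 CPM over the 6 without. It was higher after CSE in 6 of 6 mouse pairs, by 3.65 ± 0.67 on the log2 scale (SE, adjusted p = 0.0187, edgeR). The 6 pairs are 2 from each of 3 mice and are not independent, and that fit held no mouse term. With mouse as a block the adjusted p of Spink5 was 0.0129 (edgeR). The ratio within a mouse was 4.36, 7.27 and 34.9 for FibCSE over FibVeh (mice 1, 2 and 3) and 14.1, 2.52 and 34.6 for FibCSETF over FibTF. Mouse 3 had the highest ratio both times. Without any 1 of the 3 mice, or without mouse 1 or 3 of FibVeh or FibTF, the Spink5 call was lost (adjusted p of 0.0572 to 0.487), at log2 fold changes of 2.36 to 4.57.

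Lce1g fell by 1.32 on the log2 scale (SE 0.16, adjusted p = 0.00382, edgeR), lower in 6 of 6 pairs. Within a mouse, FibCSE over FibVeh was 0.327, 0.422 and 0.317, and FibCSETF over FibTF was 0.506, 0.419 and 0.392. The mice were closer to each other than for Spink5. The call was lost without mouse 2 (adjusted p = 0.0523) or mouse 3 (adjusted p = 0.398), at log2 fold changes of -1.39 and -1.23. Without drugs, FibCSE against FibVeh, Lce1g fell by 1.47 (SE 0.23, adjusted p = 0.0476, edgeR), the 1 gene of 9 to pass where 0.104% of features did (0.678% with the mouse block). DESeq2 called 2, with 3.28% of features, and 2 had an unadjusted p under 0.05, with 13.3%. The Lce1g call without drugs was lost in 14 of the 15 fits that left out a mouse or a library. Spink5 stood there at 3.88 ± 0.94 (SE, adjusted p = 0.125).

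Tgm1 stood at 0.94 ± 0.30 in Fib after CSE (SE, adjusted p = 0.105), with within-mouse ratios of 1.00, 1.86 and 3.01 without drugs and 2.12, 1.64 and 2.49 with drugs. DESeq2 called it (adjusted p = 0.0257), as did the edgeR fit of all 24 libraries (adjusted p = 0.0426). The remaining Fib values were Ivl -0.44 ± 0.24, Sprr1a -0.32 ± 0.21, Tmprss11e -0.63 ± 0.41, Crct1 0.44 ± 0.25, Sbsn 0.39 ± 0.30 and Sprr3 0.16 ± 0.34 (SE), with adjusted p of 0.323 to 0.835. For Sbsn the value was -0.08 without mouse 1, and for Sprr3 it was -0.21 without mouse 2.

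The levels of other cell markers in Fib were as follows. Leukocyte markers summed to 48.6 to 91.0 CPM after CSE and 39.9 to 51.1 CPM without, and Ptprc, which all leukocytes carry, averaged 0.0690 CPM in Fib. Epithelial identity markers summed to 3106 to 6499 CPM after CSE and 3323 to 6459 CPM without, and the 9 fibroblast markers other than Fn1 to 1137 to 5655 CPM after CSE and 1359 to 2428 CPM without. Mesothelial markers summed to 626 to 1283 CPM after CSE and 841 to 1271 CPM without, nearly all of it Msln, which averaged 1682 CPM in Epi and 984 CPM in Fib. Of 10 markers of other airway and alveolar epithelial cells, 5 rose and 0 fell in Fib after CSE, where 1.83% of features rose and 2.18% fell, with a median log2 fold change of 1.44; Scgb1a1, a secreted club cell protein, was at 303 ± 251 CPM after CSE and 13.3 ± 6.18 CPM without (SD, n = 6 each). The part of leukocytes, fibroblasts, mesothelial cells and these other epithelial cells in the results was not tested. The calls of Spink5 and Lce1g in Fib held with the mean log2 level of the 10 epithelial identity markers as a covariate. The sums of those markers overlapped after CSE and without, and the covariate held none of the airway and alveolar markers. Nothing about a cause is therefore read from that fit.

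In the epithelial fraction 0 of the 9 genes passed for CSE averaged over drugs, where 0.00554% of 18038 features did; 3 had an unadjusted p under 0.05, as did 8.38% of features, and DESeq2 called 2, with 1.05% of features. Spink5 had a log2 fold change of 1.95 ± 0.48 (SE, adjusted p = 0.267, edgeR), higher in 6 of 6 pairs, and of 1.12 without mouse 3 and 2.67 without mouse 2. Within a mouse the ratio was 2.64, 1.32 and 12.9 for EpiCSE over EpiVeh and 2.61, 3.28 and 9.06 for EpiCSETF over EpiTF. Tgm1 stood at 0.71 ± 0.19 (SE, adjusted p = 0.353), higher in 6 of 6 pairs, with ratios of 1.57, 1.30 and 2.09 without drugs and 1.79, 1.21 and 1.76 with drugs. DESeq2 called both, at adjusted p = 0.00176 for Spink5 and 0.0475 for Tgm1. Sprr1a stood at -0.39 ± 0.10 (SE, adjusted p = 0.32), lower in 5 of 6 pairs.

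Lce1g stood at -0.77 ± 0.44 in Epi (SE, adjusted p = 0.689), and at -1.36 without the EpiCSE library of mouse 2, its highest library after CSE. The others were Tmprss11e at -0.51 ± 0.36, Ivl at -0.24 ± 0.14, Sprr3 at -0.18 ± 0.19, Crct1 at -0.07 ± 0.33 and Sbsn at -0.05 ± 0.12 (SE). Without drugs, EpiCSE against EpiVeh, 0 of 9 passed where 0% of features did (edgeR). DESeq2 called 0, with 0.0887% of features, and 2 had an unadjusted p under 0.05, with 3.7%. Spink5 stood there at 1.73 ± 0.66, Tgm1 at 0.74 ± 0.28 and Lce1g at -0.54 ± 0.62 (SE). Spink5 stood at 0.66 without mouse 3 and 2.92 without mouse 2, and Lce1g at -1.72 without the EpiCSE library of mouse 2 and -0.05 without mouse 3. The CSE effect in Epi minus that in Fib was -1.70 ± 0.83 for Spink5 (SE, adjusted p = 0.585) and 0.55 ± 0.47 for Lce1g (SE, adjusted p = 0.733). No gene of the 9 passed that test of the difference, where 0% of 19142 features did (edgeR). At an unadjusted p under 0.05 there were 0, with 8.63% of features, and DESeq2 called 0, with 0.407%.

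**Figure D3:**
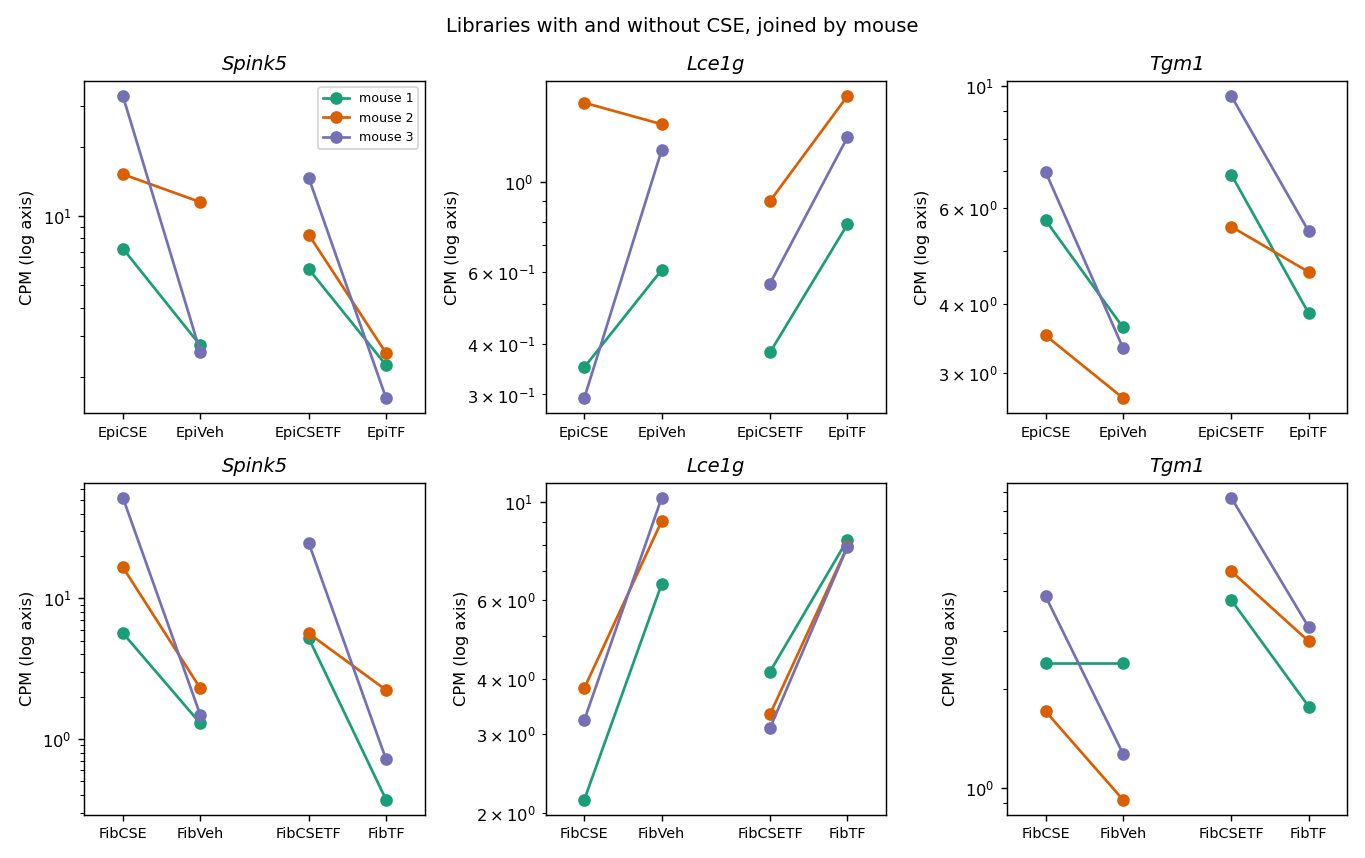
CPM (log axis) of Spink5, Lce1g and Tgm1 in Epi (top) and Fib (bottom) libraries; each line joins the library after CSE to the one without CSE from the same mouse, without drugs at left and with drugs at right. Spink5 is higher after CSE in all 12 pairs, and Lce1g is lower after CSE in all 6 Fib pairs.

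Tanimilast with formoterol gave no call among these genes in either fraction. In Fib, averaged over CSE, 0 of 9 passed where 0.109% of features did (edgeR). Without adjustment 2 were under 0.05, with 14.9% of features, and DESeq2 called 0, with 3.86%. Tgm1 stood at 0.87 ± 0.30 (SE, adjusted p = 0.217), higher with drugs in 5 of 6 pairs, and Ivl at 0.56 ± 0.24 (SE, adjusted p = 0.305), also in 5 of 6. Tmprss11e stood at 0.40 ± 0.41, Crct1 at 0.16 ± 0.25, Sprr1a at 0.07 ± 0.21, Lce1g at 0.06 ± 0.16, Sbsn at -0.10 ± 0.30, Sprr3 at -0.24 ± 0.34 and Spink5 at -0.83 ± 0.62 (SE). Spink5 was lower with drugs in 6 of 6 pairs. The epithelial identity markers summed to 3979 to 6459 CPM in FibTF and 4088 to 6499 CPM in FibCSETF, against 3106 to 4211 CPM in FibCSE and 3323 to 4724 CPM in FibVeh, and their part in these values was not tested beyond the covariate given with the Epi values.

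In Epi, averaged over CSE, 0 of 9 passed where 0.00554% of features did (edgeR). At an unadjusted p under 0.05 there were 2, with 6.31% of features, and DESeq2 called 0, with 0.383%. Spink5 stood at -1.16 ± 0.47 (SE, adjusted p = 0.781), lower in 6 of 6 pairs, and Tgm1 at 0.48 ± 0.19 (SE, adjusted p = 0.781), higher in 6 of 6. Sprr3 and Crct1 each stood at -0.33, with SE of 0.19 and 0.33. The remaining values ran from -0.16 ± 0.10 for Sprr1a to 0.25 ± 0.36 for Tmprss11e (SE). With the other fraction's markers as a covariate, Tmprss11e stood at -0.22 in Epi and -0.19 in Fib, and Ivl at -0.07 in Epi and -0.18 in Fib. For the drugs without CSE 0 of 9 passed in Epi, with 0% of features, and 0 in Fib, with 0.00547% (edgeR). At an unadjusted p under 0.05 there were 1 in Epi, with 2.62% of features, and 0 in Fib, with 6.3%. For the drugs after CSE 0 of 9 passed in Epi, with 0% of features, and 0 in Fib, with 0.0109% (edgeR). At an unadjusted p under 0.05 there were 0 in Epi, with 4.18% of features, and 1 in Fib, with 10.4%. The interaction of CSE with the drugs passed for 0 of 9 in either fraction, with 0% of features (edgeR; 0 at an unadjusted p under 0.05, with 1.15% of features in Epi and 1.98% in Fib). The drug effect in Epi minus that in Fib also passed for 0 of 9, with 0% of features (edgeR; 0 at an unadjusted p under 0.05, with 2.61%). DESeq2 called 0 of 9 in each of these. It called 0.0499% of features in Epi and 0.109% in Fib for the drugs without CSE, and 0.0832% in Epi and 0.897% in Fib for the drugs after CSE. For the interaction it called 0.00554% in Epi and 0% in Fib, and for the difference between fractions 0.00522%.

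**Figure D4:**
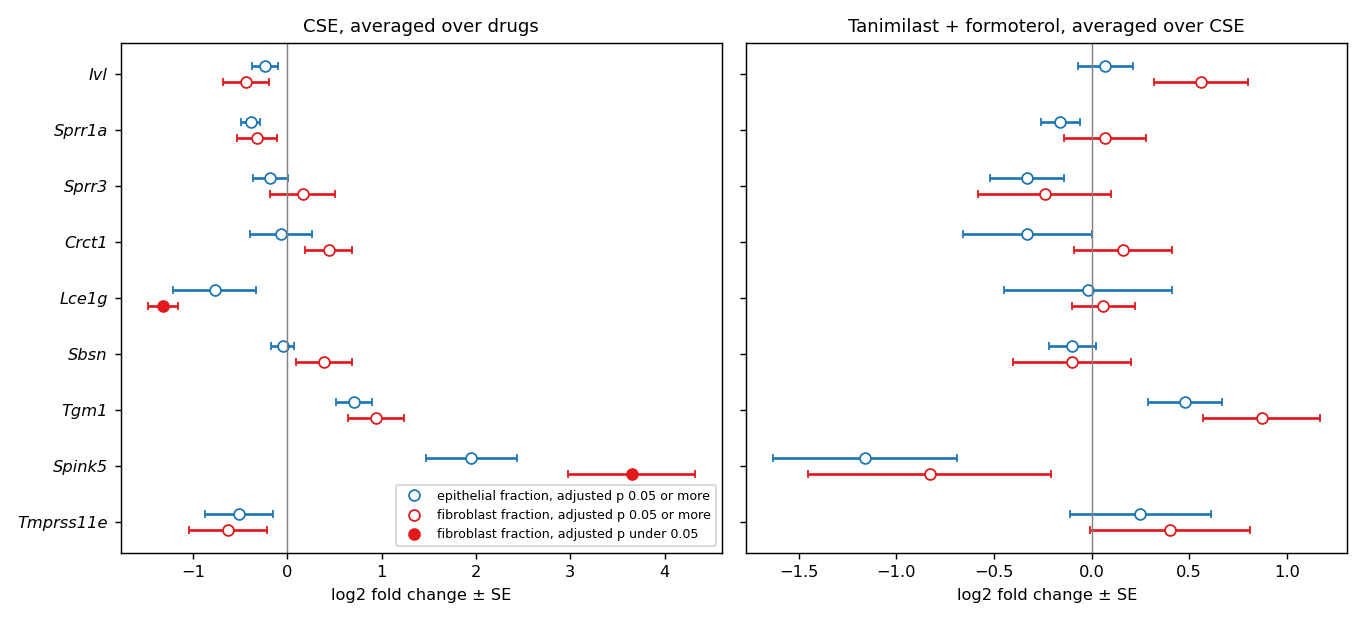
Log2 fold change ± SE of 9 genes for CSE (left) and for tanimilast with formoterol (right) in Epi (blue) and Fib (red) libraries; filled points passed at adjusted p under 0.05. Spink5 and Lce1g are filled for CSE in Fib, and no point is filled for the drugs.

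In Epi more features were called for the mouse than for any treatment, among these genes and over the whole table alike. With mouse as a term, 3 of 9 genes differed between mice where 17.7% of 18038 features did: Tmprss11e (adjusted p = 0.00757), Crct1 (adjusted p = 0.0137) and Lce1g (adjusted p = 0.0337, edgeR). The animal, its cell isolation and its culture share that number and cannot be told apart. With the level of fibroblast markers in each library as a covariate, 0 of 9 were called, where 1.25% of features were. DESeq2 called 5 in Epi, with 25.9% of features, and 5 had an unadjusted p under 0.05, with 35.3%. In Fib 0 of 9 passed, where 0.995% of features did (edgeR; 4 at an unadjusted p under 0.05, with 20.3% of features; 2 by DESeq2, with 10.2%).

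Beyond these 10 genes, 155 genes in 5 lists of squamous biology were read. After CSE in Fib, 7 of 98 tested rose and 4 fell, where 1.83% of features rose and 2.18% fell (edgeR), and the median log2 fold change was 0.11, against 0.02 over all features. Without adjustment 38 were under 0.05, with 21.2% of features, and DESeq2 called 20, with 9.64%. With mouse as a block, 11 rose and 10 fell, where 8.69% of features passed. Of 22 envelope structural genes tested, 0 rose and 2 fell (1 and 6 with the block). Sprr2h fell by 1.31 (SE 0.29, adjusted p = 0.0354), with 0.859 ± 0.346 CPM after CSE and 2.28 ± 0.994 CPM without (SD, n = 6 each). Lce1h fell by 1.40 (SE 0.32, adjusted p = 0.0394), with low levels of 0.244 ± 0.0996 CPM after CSE and 0.641 ± 0.188 CPM without (SD, n = 6 each). As with Lce1g, both were lower after CSE in 6 of 6 pairs.

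Of 20 proteases and inhibitors, 3 rose and 1 fell, against the same 1.83% and 2.18% of features, which hold for each list here. Klk13 and Klk14 code for kallikreins, the protease family that LEKTI inhibits. Klk13 averaged 33.1 ± 10.6 CPM after CSE and 12.5 ± 5.07 CPM without (SD, n = 6 each), a log2 fold change of 1.42 ± 0.30 (SE, adjusted p = 0.0306). Klk14 rose by 1.83 (SE 0.43, adjusted p = 0.0443), a call that ended with mouse as a block (adjusted p = 0.0677). The membrane proteases Tmprss13 and Tmprss11f parted, at 0.88 ± 0.18 (SE, adjusted p = 0.0235) and -0.96 ± 0.19 (SE, adjusted p = 0.0222). Tmprss11f lies near Tmprss11e on chromosome 5.

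Dsc3, a desmosomal cadherin of basal squamous cells, was the 1 of 24 keratin and desmosome genes to rise in Fib, by 2.47 (SE 0.40, adjusted p = 0.0116). In Epi it stood at 2.27 ± 0.29 (SE, adjusted p = 0.0538, and 0.0027 with the mouse block), with 4.04 ± 1.44 CPM after CSE and 0.855 ± 0.452 CPM without (SD, n = 6 each). Of 23 regulators, Trp63, which codes for p63, the master regulator of basal and squamous cells, rose in Fib by 0.85 (SE 0.20, adjusted p = 0.0459), and Grhl1, a regulator of desmosomal and envelope genes, by 0.38 (SE 0.09, adjusted p = 0.0468). Fosl1, a subunit of AP-1, fell by 0.31 (SE 0.06, adjusted p = 0.0195). Trp63 in Epi stood at 0.48 ± 0.08 (SE, adjusted p = 0.092, and 0.00795 with the block). Of 9 cross-linking and lipid enzymes 1 rose, Cyp4f39, an enzyme of skin lipid synthesis, by 1.08 (SE 0.27, adjusted p = 0.0485).

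In Epi 0 of 100 list genes passed for CSE, where 0.00554% of features did, and the median was 0.00, as over all features (edgeR). Without adjustment 17 were under 0.05, with 8.38% of features, DESeq2 called 3, with 1.05%, and with the mouse block 2 rose and 2 fell, where 1% of features passed. Sprr2d was at 2.37 ± 0.457 CPM after CSE and 4.32 ± 1.69 CPM without (SD, n = 6 each), a difference of -0.80 ± 0.18 (SE, adjusted p = 0.192, and 0.0481 with the block). Sprr2h stood at -0.96 ± 0.34, Krt23, a keratin of simple and stressed epithelia, at -0.77 ± 0.26, the transglutaminase gene Tgm2 at -0.35 ± 0.11 and the cysteine protease inhibitor gene Cstb at -0.29 ± 0.10 (SE). On the higher side were Cyp4f39 at 0.72 ± 0.24, the transcription factor gene Maf at 0.73 ± 0.25 and Slurp1, a secreted protein of squamous cells, at 0.68 ± 0.29 (SE). Sprr2h and Slurp1 were low, at 0.149 and 0.320 CPM after CSE and 0.324 and 0.191 CPM without.

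For the drugs 0 of 98 list genes passed in Fib, where 0.109% of features did, with a median log2 fold change of 0.33 and 0.00 over all features (edgeR). Without adjustment 32 were under 0.05, with 14.9% of features, and DESeq2 called 16, with 3.86%. With the mouse block 9 rose and 2 fell, where 2.54% of features passed. Among those 11 were St14, which codes for the protease matriptase, at 0.58 ± 0.16 (SE, adjusted p = 0.0283 with the block), Prss8, which codes for its partner prostasin, at 0.69 ± 0.14 (SE, 0.0154 with the block), Krt23 at 1.13 ± 0.21 (SE, 0.0169 with the block) and Sprr2g at 0.57 ± 0.16 (SE, 0.0389 with the block). Fosl1 was among them on the lower side, at -0.25 ± 0.06 (SE, 0.0321 with the block). Cnfn, which codes for the envelope protein cornifelin, stood at 2.29 ± 0.53 (SE, adjusted p = 0.116). Its levels were 0.329 ± 0.139 CPM with drugs and 0.0741 ± 0.0607 CPM without (SD, n = 6 each). The level without drugs lay within the range of the floor of 3 counts, 0.0631 to 0.0942 CPM. The lipid enzyme genes Sult2b1 and Cers3 stood at 0.66 ± 0.18 and 0.60 ± 0.18 and the gap junction gene Gjb2 at 0.43 ± 0.10 (SE), each higher with drugs in 6 of 6 pairs. The part of the epithelial identity markers, whose sums by group are given above, in these list values was not tested.

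In Epi 0 of 100 list genes passed for the drugs, where 0.00554% of features did, with a median of 0.05 (edgeR; 13 at an unadjusted p under 0.05, with 6.31% of features; 0 by DESeq2, with 0.383%; and 0 with the mouse block, where 0.205% of features passed). The envelope gene Rptn stood at 1.13 ± 0.32, Krt23 at 0.76 ± 0.26, Sprr2d at 0.52 ± 0.18, the lipoxygenase gene Aloxe3 at 0.46 ± 0.32, Prss8 at 0.43 ± 0.12 and the protease inhibitor gene Spint2 at 0.17 ± 0.08 (SE). Krt13, a keratin of internal squamous linings, stood at -0.50 ± 0.16, the fatty acid elongase gene Elovl4 at -0.47 ± 0.35, the transcription factor gene Ovol1 at -0.47 ± 0.17 and Trp63 at -0.20 ± 0.08 (SE). Rptn, Aloxe3 and Elovl4 were low, at 0.395, 0.370 and 0.355 CPM with drugs and 0.180, 0.265 and 0.534 CPM without.

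The other envelope structural genes lay on both sides between fractions. Of 25 tested, 15 were above 0 and 10 below; 6 were above 1 and 8 below -1 on the log2 scale of Epi over Fib, or 32% below; of all features 7.3% were above 1 and 13.7% below -1. The 8 below -1 took in several Sprr2 genes. Among them Prr9, Sprr2h, Sprr2i, Kprp and Tchhl1 averaged 0.0138 to 0.245 CPM in Epi and 0.261 to 3.00 CPM in Fib. A gene can pass the filter on low counts by its Fib libraries alone, so nothing is read from the 32%. Sprr2g averaged 1.39 ± 0.513 CPM in Epi and 10.3 ± 3.29 CPM in Fib, and Sprr2d 3.35 ± 1.56 CPM in Epi and 16.3 ± 6.41 CPM in Fib (SD, n = 12 each). Sprr2a1, Sprr2a2 and Sprr2a3, which are near-identical copies and can share reads, lay the other way, at 1.00, 0.99 and 0.97. Of the Tmprss11 cluster, Tmprss11b stood at -1.68 ± 0.14 and Tmprss11f at -2.26 ± 0.24, against 1.90 ± 0.41 for Tmprss11d and 1.43 ± 0.42 for Tmprss11g (SE). Squamous keratins and desmosome genes were above 1 in 16 of 24 and below -1 in 1. Names in this paragraph were chosen after their values were seen, apart from those named above.

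**Figure D5:**
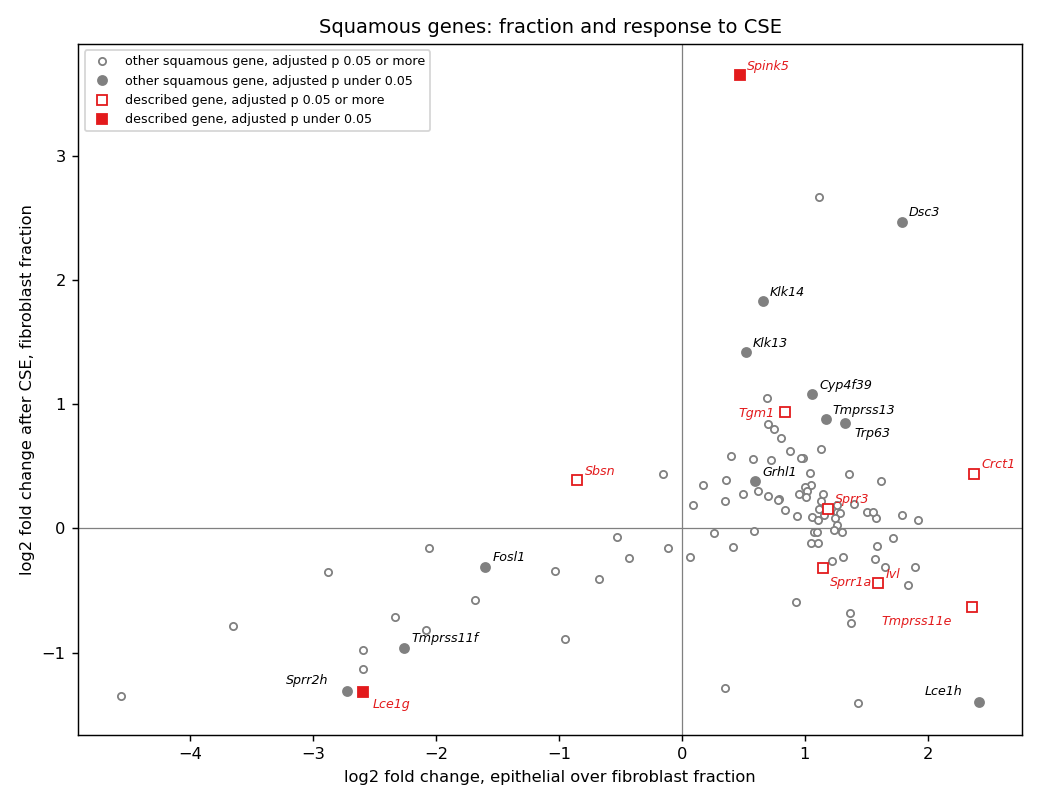
Each point is 1 squamous gene: log2 fold change Epi over Fib (x) against log2 fold change after CSE in Fib libraries (y); red squares are the 10 genes less Krtdap and filled points passed for CSE at adjusted p under 0.05. Lce1g, Sprr2h and Tmprss11f lie at lower left, and Spink5, Dsc3, Klk13 and Klk14 at upper right.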

How the data were processed

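Per the labels' protocols, poly-A RNA was sequenced and the authors deposited whole-number counts per gene. Trimmomatic 0.30 (trimming) and DESeq2 are the tools listed, per the submitters' processing notes; for aligner, counter and strand setting these sources name nothing. The labels' protocols call the mouse reference by a human assembly's name, so the build is not settled; RefSeq promoters are from GRCm38.p6. NewGene loci, with no symbol, took 0.574 to 1.06% of counts and stayed in.

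Within each fraction (12 libraries) the test was edgeR's, version 4.0.16, R 4.3.3 (TMM, filterByExpr, robust quasi-likelihood F test, 4 group means, Benjamini-Hochberg over all features); fractions were compared over 24 libraries. A prior count of 2 was used for log2 CPM. The whole-table fit was run on simulated Fib counts with known CSE changes. These held no mouse effect, so nothing is read from that run about libraries that share a mouse. The 10 genes and the lists were chosen with earlier results of these data known. Genes named are the 10; in each list and averaged effect, up to 4 called genes of smallest p, or else up to 2; and the 6 nearest profiles; other names, in the account of the fractions, were chosen after their values were seen. Alternatives were other scaling, no filter, DESeq2 1.42.0, mouse as a block, marker covariates, all 24 libraries, and leaving out mice or libraries. Of 24 replicate pairs 0 were identical (chi-square per degree of freedom 14.1 to 119). The labels give the mouse as batch, so numbers pair libraries; deviations of same-mouse libraries correlated at -0.01 to 0.45 in Epi and -0.01 to 0.50 in Fib. The main fit held no mouse term and counted libraries of the same mouse as separate. Where n is 6 or 12, it counts libraries, and these came from 3 mice. P-values cover the spread over 3 animals, the donors of the epithelial cells, and their cultures. They cover no spread between fibroblast donors, since all fibroblasts came from a single line. Of 218 list names 217 were found. 1 gene that the naming rule picks is not reported here.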

Additional observations from a re-analysis of the deposited data

How the results depend on the processing

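The scaling by RLE moved the median of all features by at most 0.027 (log2), and changed no count of called genes by over 1.5 times. For CSE averaged in Fib the 2 calls became 1 with no filter on low counts (Spink5, adjusted p = 0.0641) and 4 with the epithelial covariate and the mouse block together (Tgm1, adjusted p = 0.0243, and Tmprss11e, adjusted p = 0.0497, added); leaving out mice or libraries gave 0 to 2. For CSE without drugs in Fib the 1 call became 2 by DESeq2, 2 with the covariate and 0 in the fit of all 24 libraries; leaving out mice or libraries gave 0 to 1. Tgm1 also passed for CSE averaged in Fib by DESeq2 and in the fit of all 24 libraries (adjusted p = 0.0426, edgeR). For CSE averaged in Epi DESeq2 gave 2. For the mouse term DESeq2 gave 5 in Epi and 2 in Fib, and the covariate 0 in Epi. The mouse as a replicate block ended or added no call among the 9 genes. The causes were not tested.

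No gene that passed changed direction under any setting. Among values that did not pass, drug effects in Epi with the fibroblast covariate were 0.28 for Crct1, 0.56 for Lce1g, -0.07 for Ivl and -0.22 for Tmprss11e, and with the block added 0.20 for Crct1 and 0.12 for Lce1g. The block alone gave Lce1g 0.06. In Fib the covariate gave -0.18 for Ivl, -0.19 for Tmprss11e and 0.43 for Sbsn, and with the block added -0.53 for Crct1, -0.40 for Sprr1a, -0.25 for Ivl, -0.22 for Tmprss11e and 0.03 for Sbsn. The CSE effect of Sbsn in Epi was 0.02 with covariate and block. Among the averaged effects, and the CSE differences between fractions given for Spink5 and Lce1g, ranges over fits that left out a mouse or library crossed 0 as follows. For CSE in Epi they were -0.35 to 0.13 for Crct1 and -0.16 to 0.02 for Sbsn, and in Fib -0.08 to 0.57 for Sbsn and -0.21 to 0.37 for Sprr3. For the drugs in Epi they were -0.22 to 0.56 for Lce1g, -0.03 to 0.16 for Ivl and -0.18 to 0.01 for Sbsn. For the drugs in Fib they were -0.19 to 0.19 for Lce1g, -0.71 to 0.07 for Sprr3, -0.07 to 0.51 for Crct1, -0.08 to 0.27 for Sprr1a and -0.35 to 0.23 for Sbsn. The CSE effect of Lce1g in Epi minus Fib ran from -0.03 to 0.75. In the shallowest library 1 CPM stood for 31.8 counts, which limits Sprr3 and Lce1g in Epi. It also limits the Spink5 ratios in Fib. Their libraries without CSE held 13, 90 and 29 counts in FibTF (mice 1, 2 and 3) and 43, 107 and 50 in FibVeh.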

Other observations

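The mean profile of the 8 genes with at least 1 CPM over the 12 Epi libraries, each gene centred and scaled and the mean scaled again to SD 1, was highest in EpiVeh of mouse 3 (2.04) and lowest in EpiCSETF of mouse 2 (-1.04). The genes nearest to it by root mean square difference among 12327 were Espn at 0.30, Ttll3 at 0.43, Rhbdf2 at 0.44, and Ablim1, Sncg and Gpatch8 at 0.49 each, where the median gene stood at 1.36. The 8 genes themselves stood from 0.73 for Ivl to 1.49 for Crct1. Ivl, Sprr3 (0.80) and Tmprss11e (0.80) were closer to the profile than Spink5 (1.42), Tgm1 (1.29) or Crct1. Each of the 8 is part of the mean, so its closeness is in part closeness to itself. Even so, Crct1 and Spink5 stood farther off than the median gene, so the profile is not shared by all 8.

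Of 10 markers of other airway and alveolar cells, 5 rose after CSE in Fib, where 1.83% of features rose, and 4 of them are given here. Scgb1a1, a secreted club cell protein, rose by 4.54 on the log2 scale (SE 0.62, adjusted p = 0.00663, edgeR), and Scgb3a2, which lies near Spink5 on chromosome 18, by 3.13 (SE 0.53, adjusted p = 0.0145, edgeR). Scgb3a2 averaged 313 ± 165 CPM after CSE and 37.6 ± 25.7 CPM without (SD, n = 6 each). Ager, a marker of alveolar type 1 cells, rose by 1.98 (SE 0.36, adjusted p = 0.0175, edgeR). Sftpc, a surfactant gene, rose by 2.59 (SE 0.55, adjusted p = 0.0316, edgeR), a call that the mouse block ended (adjusted p = 0.0827). Of 10 basal cell genes, 1 rose in Fib after CSE, Trp63. With drugs Muc5b, an airway mucin, rose in Fib by 2.00 (SE 0.30, adjusted p = 0.0408, edgeR).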
